A study of Mus musculus with 14 samples.

Results

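The keratin genes were taken as every row of the deposited table whose symbol is Krt followed by a number and at most 1 letter, which left out the keratin-associated protein genes (Krtap). This rule found 52 of 24035 genes, 28 of type I and 24 of type II. Of these, 29 reached 1 TPM in at least 3 samples and were tested, and the other 23 lay below that filter. Expression was measured by mRNA sequencing of 14 samples of whole mouse ear, given in TPM, transcripts scaled to gene length and to the total of each sample, so levels can be set side by side between genes while the depth of each sample is unknown. Ears of LC-DTA mice, which lack Langerhans cells over the long term, gave 4 samples after croton oil and 3 after vehicle. Ears of LC-DTR mice, taken 3 days after diphtheria toxin (DT) had removed the same cells, also gave 4 samples after croton oil and 3 after vehicle. Croton oil, a skin irritant that holds phorbol esters, was painted at 1% in 20 µl on both sides of the ear for 6 h, and vehicle was acetone and olive oil at 4 to 1. All groups thus lacked Langerhans cells, and ears that kept these cells were not analysed here. The labels name no promoter behind either transgene, no age, and no separate animals within a group, so p-values measure only the spread between these samples.

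Keratins form the intermediate filaments of epithelial cells, and each filament pairs an acidic type I with a basic type II chain. In the interfollicular epidermis the dividing basal cells make Krt5 and Krt14, and cells that leave the basal layer switch to Krt1, Krt2 and Krt10. Krt6a, Krt6b, Krt16 and Krt17 belong to the hair follicle in resting skin and appear in the epidermis after injury or irritation. The follicle has keratins of its own in the inner root sheath, the companion layer and the hair shaft. Phorbol esters activate protein kinase C and are textbook agents of keratinocyte activation.

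Keratin genes lie in 2 clusters. In GENCODE M21 on GRCm38, 51 of the 52 symbols were matched, 27 of them on chromosome 11 between 99232761 and 100269871 and 24 on chromosome 15 between 101347444 and 102032027, and Krt85 was not matched. The chromosome 11 cluster holds the type I genes except Krt18, which stands at the end of the chromosome 15 cluster (102028180 to 102032027), 23697 bases from its type II partner Krt8. RefSeq promoter sequences (GRCm38.p6) were matched for 35 members, 21 of them tested. Krt18 and Krt42 are shown because both rose after croton oil in both genotypes, and Krt28 and Krt32 because both fell in both genotypes. Each is the 250 bases before the RefSeq start, 5′ to 3′ on the gene's strand, and capitals mark TATAAA, the core of the TATA box.
Krt18, chr15:102027966-102028215, plus strand: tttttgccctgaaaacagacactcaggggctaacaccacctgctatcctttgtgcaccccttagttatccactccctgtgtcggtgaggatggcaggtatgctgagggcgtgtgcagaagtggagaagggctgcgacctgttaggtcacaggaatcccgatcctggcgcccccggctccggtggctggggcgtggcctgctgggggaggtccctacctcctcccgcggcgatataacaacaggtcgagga
Krt42, chr11:100269952-100270201, minus strand: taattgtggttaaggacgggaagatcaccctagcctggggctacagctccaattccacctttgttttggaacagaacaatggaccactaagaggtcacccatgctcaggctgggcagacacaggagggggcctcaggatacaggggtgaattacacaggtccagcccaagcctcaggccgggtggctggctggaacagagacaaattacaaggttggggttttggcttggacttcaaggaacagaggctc
Krt28, chr11:99374904-99375153, minus strand: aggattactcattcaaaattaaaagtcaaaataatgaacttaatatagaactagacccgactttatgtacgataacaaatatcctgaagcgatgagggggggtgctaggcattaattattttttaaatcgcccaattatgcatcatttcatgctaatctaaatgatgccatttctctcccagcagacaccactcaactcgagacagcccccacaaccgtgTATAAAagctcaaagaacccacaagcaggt
Krt32, chr11:100088270-100088519, minus strand: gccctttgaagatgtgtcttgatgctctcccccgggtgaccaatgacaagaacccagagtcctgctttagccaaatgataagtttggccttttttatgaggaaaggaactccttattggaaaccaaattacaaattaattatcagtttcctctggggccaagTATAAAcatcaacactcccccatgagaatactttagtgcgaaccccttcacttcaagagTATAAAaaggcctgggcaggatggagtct
TATAAA, searched on both strands, began 30 bases before the start in Krt28 and 88 and 29 bases before it in Krt32, and these letters were not in the windows of Krt18 and Krt42. The 4 shown do not stand for the rest: of the keratins with a promoter here, the letters were in 2 of the 7 that fell in both genotypes (not in Krt5, Krt7, Krt8, Krt24 and Krt78) and in 1 of the 3 that rose in both (Krt84, on the other strand). They were in 17 of the 35 keratin promoters (48.6%), against 13.0% of the 27025 promoters of the same length in the table. TGANTCA, the letters of the site known to bind AP-1, was likewise searched on both strands and was in 1 of the 35 keratin promoters (2.86%), that of Krt13, against 6.87% of all promoters. A match is a description of these letters and not of a factor bound there.

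Keratins were among the most abundant mRNAs of the ear. Krt10 was the highest gene of the whole table in 13 of the 14 samples and Krt2 in the remaining one. Krt2, which is typical of the upper spinous and granular layers of ear and tail epidermis, ran at 7728 to 18879 TPM, while Krt1 ran at 452 to 1027 TPM. All keratin genes together held 4.32, 4.10, 4.48 and 4.46% of TPM in LC-DTA croton oil samples, against 4.63, 4.57 and 4.46% in LC-DTA vehicle samples. In LC-DTR ears they held 3.11, 3.27, 3.87 and 3.05% after croton oil, against 4.84, 5.35 and 5.99% under vehicle. The LC-DTA values overlapped between treatments, and every LC-DTR croton oil sample lay below every LC-DTR vehicle sample. In whole tissue, fewer cells of a type and less RNA per cell cannot be told apart. Markers of other kinds moved with the genotypes: the summed TPM of 6 dermal fibroblast markers was 4451 to 6067 in LC-DTA croton oil, 7003 to 8813 in LC-DTA vehicle, 2182 to 3225 in LC-DTR croton oil and 2130.0 to 4872 in LC-DTR vehicle samples. That of 10 other epidermal markers was 17152 to 18372, 16434 to 17391, 20940.3 to 21740 and 20421 to 22862 in the same groups. Of the fibroblast markers, 5 of 6 were called higher in LC-DTA after croton oil and 6 of 6 under vehicle, against 34.3% and 19.1% of all genes tested. Their part in the keratin results was not tested. Cd207, the defining marker of Langerhans cells, was at 0.0567 to 1.88 TPM over all samples and was not tested. The other 2 genes of that marker list, Epcam, also made by follicle epithelium, and Itgax, also made by other dendritic cells, were called higher after croton oil in both genotypes. The 3 genes together, nearly all of it Epcam, summed to 439 to 509.5 TPM in LC-DTA croton oil, 200.3 to 228 in LC-DTA vehicle, 473 to 612 in LC-DTR croton oil and 197 to 239.9 in LC-DTR vehicle samples, and the part of these genes in the keratin results was not tested.

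**Figure D1:**
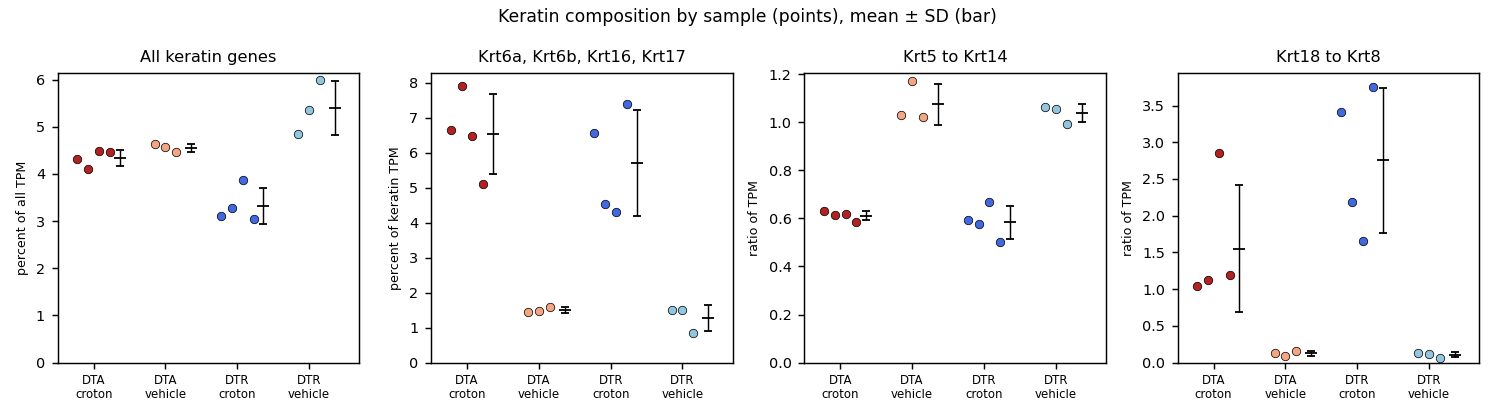
Points are samples and bars give the mean ± SD of each group, with 4 croton oil and 3 vehicle samples per genotype; the panels show the percent of all TPM held by keratin genes, the percent of keratin TPM held by Krt6a, Krt6b, Krt16 and Krt17, and the ratios of TPM of Krt5 to Krt14 and of Krt18 to Krt8. All croton oil samples of both genotypes lie above all vehicle samples for the stress-induced share and for Krt18 to Krt8, and below them for Krt5 to Krt14.

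The make-up of keratin mRNA shifted after croton oil in both genotypes. Krt6a, Krt6b, Krt16 and Krt17 together took 6.53 ± 1.15% of keratin TPM in LC-DTA croton oil samples, against 1.51 ± 0.0802% in LC-DTA vehicle samples (SD, n = 4 and 3). They took 5.70 ± 1.51% in LC-DTR croton oil samples, against 1.27 ± 0.378% in LC-DTR vehicle samples (SD, n = 4 and 3). The basal keratins held 24.6% of keratin TPM in LC-DTA croton oil, 27.7% in LC-DTA vehicle, 22.1% in LC-DTR croton oil and 26.0% in LC-DTR vehicle samples on average, and the suprabasal keratins 65.4, 67.5, 67.9 and 69.8%. The basal pair itself moved apart. The ratio of Krt5 to its partner Krt14 was 0.612 ± 0.0190 in LC-DTA croton oil samples, against 1.07 ± 0.0837 in LC-DTA vehicle samples, and 0.584 ± 0.0689 in LC-DTR croton oil samples, against 1.04 ± 0.0384 in LC-DTR vehicle samples. These shares and ratios are descriptions without a test, and a within-sample ratio shows unequal change of the 2 genes.

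The comparison of croton oil with vehicle in each genotype addressed acute irritation of ears without Langerhans cells. Calls were made in limma on log2(TPM + 1) at a Benjamini-Hochberg adjusted p below 0.05. All differences are on that log2 scale ± SE, where changes of genes with few TPM come out too small. In LC-DTA ears 17 of the 29 keratin genes were called, 8 higher and 9 lower, against 58.7% of all 14693 genes tested (24.2% higher and 34.5% lower). In LC-DTR ears 20 were called, 7 higher and 13 lower, against 51.6% of all genes (22.1% higher and 29.5% lower). The median difference over the 29 was -0.16 in LC-DTA and -0.45 in LC-DTR ears, against -0.090 and -0.060 over all genes. By median ratio scaling 51.7% of all LC-DTA calls were higher, against 41.2% as deposited, while the keratin counts stayed at 8 higher and 9 lower. Across both genotypes, 6 of the 29 keratin genes rose in both, against 14.4% of all genes tested, 8 fell in both, against 17.7%, and 7 were called in neither, against 24.5%. Of those that rose in both, Krt18, Krt42 and Krt84 would not have passed the filter without their croton oil samples. Krt27, lower in LC-DTR ears, would not have passed it without its vehicle samples. The calls of these genes held without the filter. Krt14 rose in LC-DTA and fell in LC-DTR ears, as 1.21% of all genes did.

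**Figure D2:**
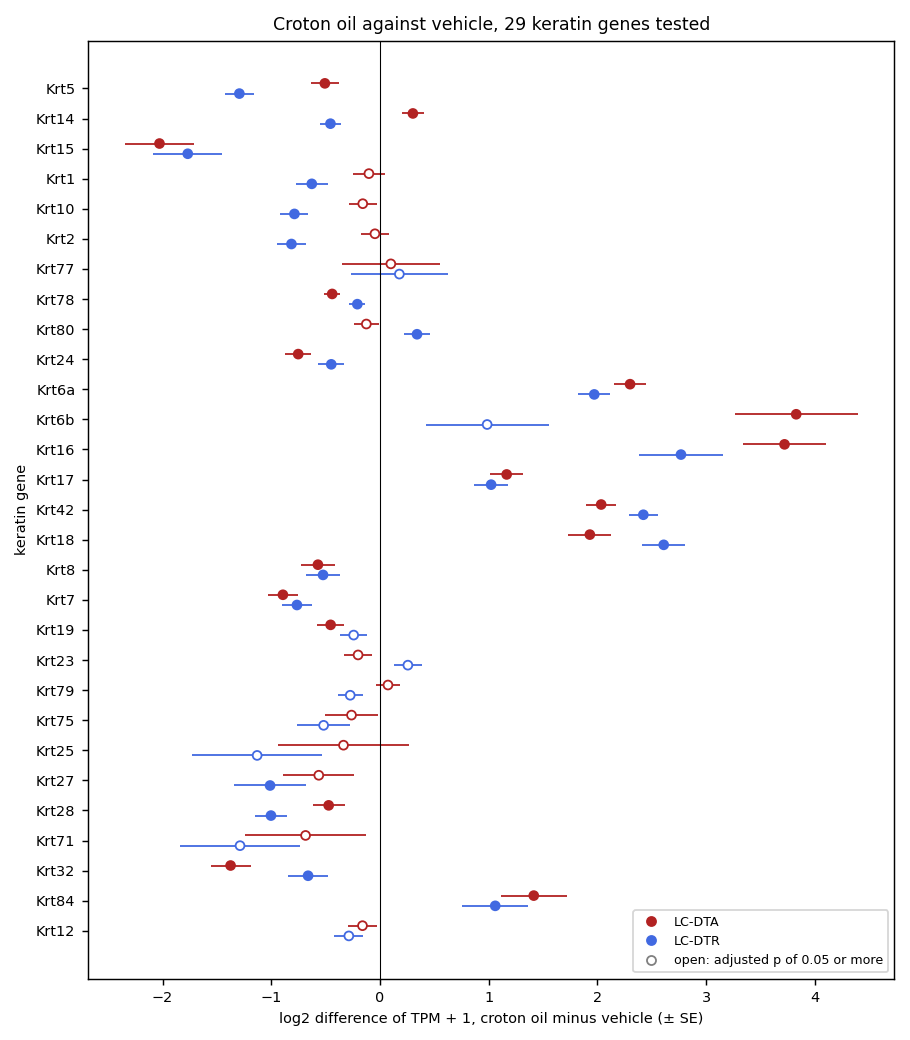
Log2 difference of TPM + 1, croton oil minus vehicle, for the 29 keratin genes tested, with SE bars; LC-DTA is drawn above LC-DTR for each gene and open points have an adjusted p of 0.05 or more. Krt16 stands at 3.72 in LC-DTA and 2.77 in LC-DTR, and Krt15 at -2.03 and -1.77.

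Of the 3 basal keratins, Krt5 and Krt15 fell in both genotypes and Krt14 moved in opposite directions. Over all genes tested 17.7% fell in both genotypes, and 1.21% rose in LC-DTA and fell in LC-DTR ears. Krt5 (chromosome 15, 101707070 to 101712898), the type II chain of basal cells, was at 4377, 3579.6, 3966 and 3498 TPM in LC-DTA croton oil samples, against 5457, 5483 and 5429 TPM in LC-DTA vehicle samples. In LC-DTR ears Krt5 was at 2372, 2160.1, 3269 and 2069 TPM after croton oil, against 5733, 6283 and 5839 TPM under vehicle. Croton oil samples lay below vehicle samples in both genotypes without overlap. Krt5 changed by -0.51 ± 0.13 (adjusted p = 0.0047) in LC-DTA and by -1.29 ± 0.13 (adjusted p = 7.76e-06) in LC-DTR ears, and the fall was smaller in LC-DTA, with a difference of responses of 0.79 ± 0.19 (adjusted p = 0.00964). Krt14 (chromosome 11, 100203162 to 100207548), the type I partner of Krt5, was at 6942, 5839.9, 6403 and 5970.5 TPM in LC-DTA croton oil samples, against 5292, 4681 and 5312 TPM in LC-DTA vehicle samples. It was at 4009.5, 3743, 4892 and 4137 TPM in LC-DTR croton oil samples, against 5382, 5942 and 5868 TPM in LC-DTR vehicle samples. The croton oil samples lay wholly above vehicle in LC-DTA and wholly below vehicle in LC-DTR ears. Krt14 rose by 0.30 ± 0.10 (adjusted p = 0.0165) in LC-DTA and changed by -0.46 ± 0.10 (adjusted p = 0.00168) in LC-DTR ears, with a difference of responses of 0.76 ± 0.14 (adjusted p = 0.00243). The LC-DTA call of Krt14 was lost without vehicle sample 2 (0.24, adjusted p = 0.0834), without croton oil samples 3 and 4 (0.32, adjusted p = 0.0501), without the expression filter (adjusted p = 0.057) and by quantile normalization (0.22, adjusted p = 0.0744), which also ended the LC-DTA call of Krt5 (-0.30, adjusted p = 0.0659). Of the 50-base windows of Krt14 transcripts 14.4% were also found in transcripts of other genes, and 8.52% of those of Krt5, so part of their reads may not tell these genes from their relatives.

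Krt15 (chromosome 11, 100131758 to 100135928), a type I keratin of basal cells that is enriched in the bulge of the follicle, fell the most of the called keratins in both genotypes on the log2(TPM + 1) scale, which makes falls of genes with few TPM too small. It was at 502, 490.0, 449 and 592 TPM in LC-DTA croton oil samples, against 1967, 2294 and 1951 TPM in LC-DTA vehicle samples. In LC-DTR ears it was at 339, 1116, 934 and 465 TPM after croton oil, against 2164, 2812 and 1684 TPM under vehicle. The groups did not overlap in either genotype, and LC-DTR croton oil samples 2 and 3 were higher than samples 1 and 4. Its difference was -2.03 ± 0.32 (adjusted p = 0.000127) in LC-DTA and -1.77 ± 0.32 (adjusted p = 0.000502) in LC-DTR ears, a mean level of 0.245 and 0.321 times that under vehicle. The ratio of means was smaller than that of Krt15 for some tested keratins with few TPM: in LC-DTA ears for Krt71 (0.140, uncalled), and in LC-DTR ears for Krt27 and Krt28 (0.198 and 0.313) and for the uncalled Krt25 and Krt71 (0.119 and 0.0518). Several keratins below the filter, Krt33a among them, also had smaller ratios. Without LC-DTR croton oil samples 2 and 3 the LC-DTR value of Krt15 was -2.45.

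Of the 7 tested suprabasal keratins, 2 were lower and none higher after croton oil in LC-DTA ears, and 5 were lower and 1 higher in LC-DTR ears. Over all genes tested 34.5% were lower and 24.2% higher in LC-DTA, and 29.5% lower and 22.1% higher in LC-DTR ears. The LC-DTA count of lower genes thus lay near that share. The difference of responses was called for Krt2 and Krt10. The median difference over the 7 was -0.13 in LC-DTA and -0.45 in LC-DTR ears, against -0.090 and -0.060 over all genes. Krt10 (chromosome 11, 99385254 to 99389364), the type I keratin of spinous cells, was at 12518, 12162, 13910.5 and 14474 TPM in LC-DTA croton oil samples, against 15179, 15140.4 and 14015 TPM in LC-DTA vehicle samples. In LC-DTR ears Krt10 was at 10355, 11458, 13049.7 and 9896 TPM after croton oil, against 16228, 18862 and 23109 TPM under vehicle. Treatments overlapped in LC-DTA and were separate in LC-DTR ears, where Krt10 changed by -0.79 ± 0.13 (adjusted p = 0.000237). The LC-DTA difference of Krt10 was -0.16 ± 0.13 (adjusted p = 0.303), and the difference of responses was 0.63 ± 0.18 (adjusted p = 0.0243). That call was lost without LC-DTA vehicle sample 3 (0.59, adjusted p = 0.059) and without LC-DTR vehicle sample 3 (0.49, adjusted p = 0.056), and quantile normalization, which gives the highest gene of each sample 1 common value, set the LC-DTR difference to 0. Without the expression filter (adjusted p = 0.123) and without LC-DTA croton oil samples 3 and 4 (adjusted p = 0.0967) it was not called either.

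Krt2 (chromosome 15, 101810689 to 101818169) was at 12169, 12350.3, 13538 and 14069 TPM in LC-DTA croton oil samples, against 13468, 13584 and 13245 TPM in LC-DTA vehicle samples. It was at 7989.7, 9063, 10928 and 7728 TPM in LC-DTR croton oil samples, against 13894, 14335 and 18879 TPM in LC-DTR vehicle samples. As with Krt10, treatments overlapped in LC-DTA ears only. Krt2 changed by -0.046 ± 0.13 (adjusted p = 0.781) in LC-DTA and by -0.81 ± 0.13 (adjusted p = 0.000224) in LC-DTR ears, with a difference of responses of 0.77 ± 0.19 (adjusted p = 0.0109) that was not called without the filter (adjusted p = 0.0581) or by quantile normalization (0.61, adjusted p = 0.0549). Krt1, the type II partner of Krt10, was at 650.2, 574, 776 and 662 TPM in LC-DTA croton oil samples, against 769.9, 611 and 760.4 TPM in LC-DTA vehicle samples. It was at 665, 452, 560.4 and 498 TPM in LC-DTR croton oil samples, against 750.4, 748 and 1027 TPM in LC-DTR vehicle samples. The LC-DTR groups did not overlap, and the difference of Krt1 was -0.10 ± 0.15 (adjusted p = 0.573) in LC-DTA and -0.63 ± 0.15 (adjusted p = 0.00298) in LC-DTR ears. The difference of responses of Krt1 was 0.53 ± 0.21 (adjusted p = 0.0832), and it was called with the replicate number as a block (0.53, adjusted p = 0.0338) and without LC-DTR croton oil sample 1 (0.63, adjusted p = 0.0358).

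Krt24 and Krt78 were lower after croton oil in both genotypes. Krt24, a type I keratin of differentiating keratinocytes in human skin, was at 472, 425, 408 and 548 TPM in LC-DTA croton oil samples, against 811, 749 and 768 TPM in LC-DTA vehicle samples. In LC-DTR ears Krt24 was at 326, 449, 428 and 333 TPM after croton oil, against 507, 497 and 554 TPM under vehicle. Neither genotype had overlap, and Krt24 changed by -0.75 ± 0.12 (adjusted p = 0.000131) in LC-DTA and -0.45 ± 0.12 (adjusted p = 0.00648) in LC-DTR ears. Krt78, a type II keratin of suprabasal layers, was at 57.8, 52.8, 57.9 and 58.1 TPM in LC-DTA croton oil samples, against 77.2, 79.8 and 74.5 TPM in LC-DTA vehicle samples. It was at 95.5, 90.1, 97.7 and 91.2 TPM in LC-DTR croton oil samples, against 114, 119 and 93.3 TPM in LC-DTR vehicle samples. The LC-DTR groups overlapped. Its difference was -0.44 ± 0.075 (adjusted p = 0.000235) in LC-DTA and -0.21 ± 0.075 (adjusted p = 0.0319) in LC-DTR ears, and the LC-DTR call was lost by median ratio scaling (-0.15, adjusted p = 0.142), in a fit of those 2 groups alone (adjusted p = 0.0905), with the replicate number as a block (adjusted p = 0.0669) and without LC-DTR vehicle sample 1 (-0.17, adjusted p = 0.115) or 2 (-0.14, adjusted p = 0.159), or croton oil sample 2 (-0.19, adjusted p = 0.0652), 4 (-0.20, adjusted p = 0.0718) or 2 and 3 together (-0.21, adjusted p = 0.0732).

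Krt80, a type II keratin of terminally differentiating cells, was the suprabasal keratin that rose in LC-DTR ears. It was at 709, 633, 692 and 725 TPM in LC-DTA croton oil samples, against 740.0, 801 and 716 TPM in LC-DTA vehicle samples. Its LC-DTR samples had 1156, 1011, 1002 and 1121 TPM after croton oil, against 961, 969 and 648 TPM under vehicle. The LC-DTA groups overlapped and the LC-DTR groups were separate by a small gap. The difference of Krt80 was -0.13 ± 0.12 (adjusted p = 0.376) in LC-DTA and 0.34 ± 0.12 (adjusted p = 0.0265) in LC-DTR ears, with a difference of responses of -0.47 ± 0.17 (adjusted p = 0.0579). Its LC-DTR call was lost without vehicle sample 3 (0.15, adjusted p = 0.14), without croton oil sample 1 (0.30, adjusted p = 0.0655) or 4 (0.32, adjusted p = 0.0629), by quantile normalization (0.25, adjusted p = 0.0887) and in a fit of those 2 groups alone (adjusted p = 0.0775), and the difference of responses was called without LC-DTR vehicle sample 1 (-0.56, adjusted p = 0.0323) or 2 (-0.56, adjusted p = 0.0333). Krt77, a type II keratin best known from sweat ducts in human skin, varied widely among the LC-DTA croton oil samples, at 75.3, 186, 363 and 319 TPM, against 210.0, 201 and 156 TPM under vehicle. Its LC-DTR samples had 447, 251, 389 and 496 TPM after croton oil, against 339, 544 and 211 TPM under vehicle. The treatments overlapped in both genotypes, and the differences were 0.10 ± 0.45 (adjusted p = 0.862) in LC-DTA and 0.18 ± 0.45 (adjusted p = 0.762) in LC-DTR ears. Krt9, of palm and sole epidermis, and Krt76 of oral epithelium lay below the filter, at no more than 1.10 and 0.0938 TPM.

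**Figure D3:**
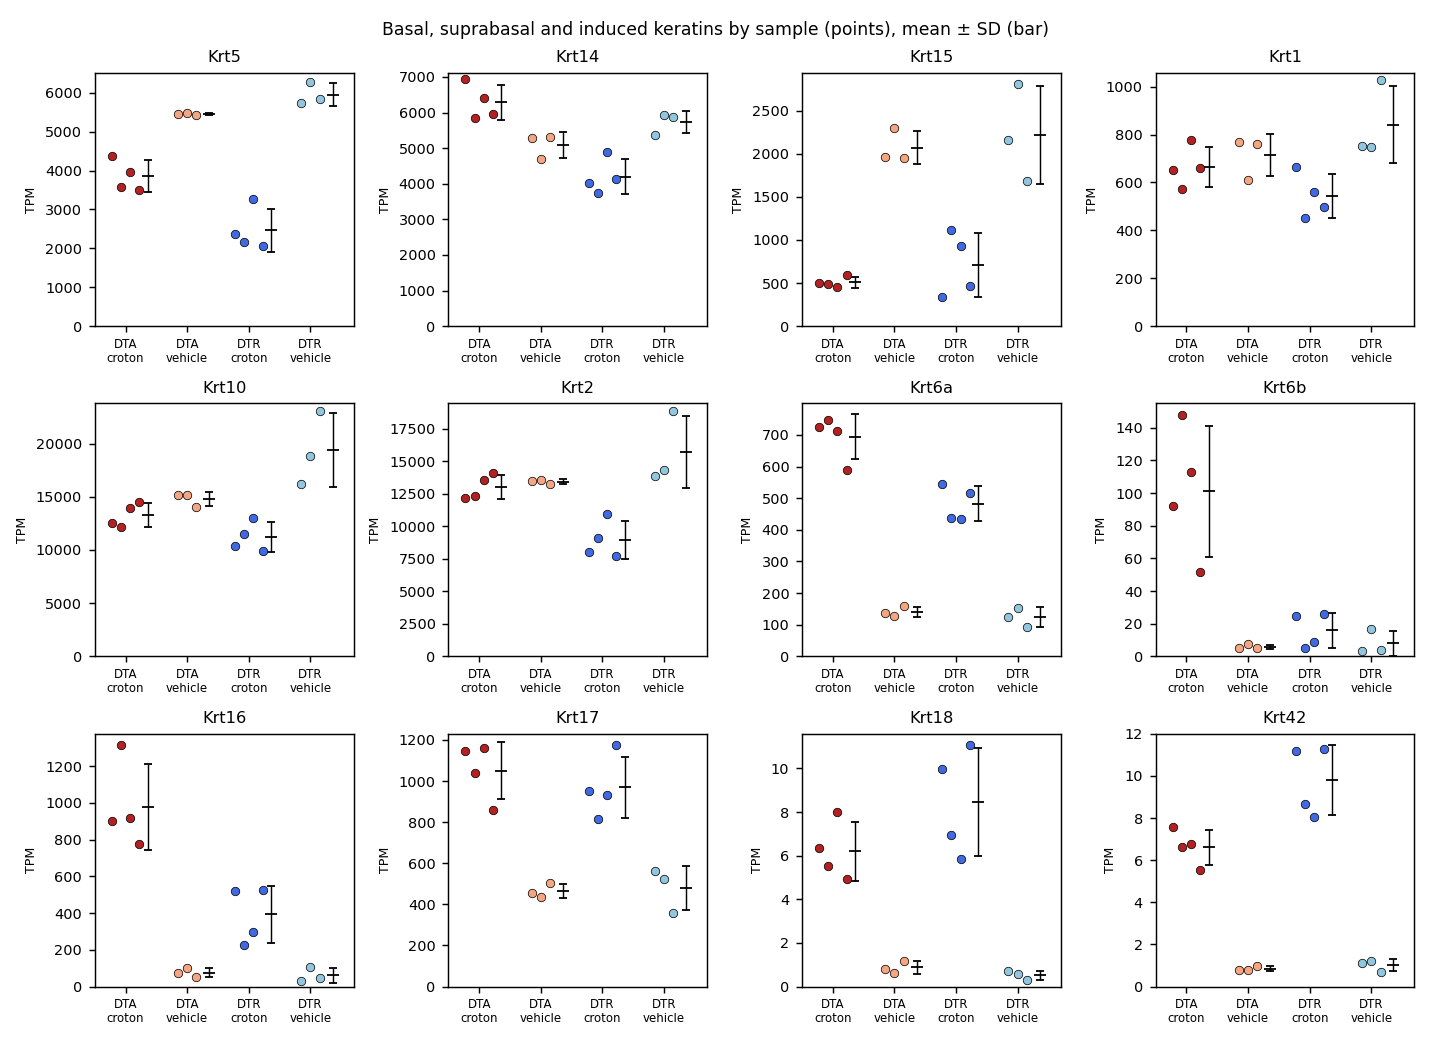
TPM of 12 keratin genes in every sample (points) with the mean ± SD of each group (bars), on linear axes from 0, with 4 croton oil and 3 vehicle samples per genotype. Krt6a, Krt16, Krt17, Krt18 and Krt42 lie higher in all croton oil samples than in all vehicle samples of their genotype, and Krt14 lies above vehicle in LC-DTA and below it in LC-DTR.

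All 4 stress-induced keratins rose in LC-DTA ears, against 24.2% of all genes tested, and 3 of them rose in LC-DTR ears, against 22.1%. Their median differences were 3.01 in LC-DTA and 1.5 in LC-DTR ears, against -0.090 and -0.060 over all genes. Krt16 (chromosome 11, 100246091 to 100248902), the type I partner of Krt6, was at 903, 1312, 918 and 777 TPM in LC-DTA croton oil samples, against 75.0, 99.3 and 49.6 TPM in LC-DTA vehicle samples. It was at 522, 227, 296 and 528 TPM in LC-DTR croton oil samples, against 31.7, 106 and 44.7 TPM in LC-DTR vehicle samples. Treatments were separate in both genotypes, and LC-DTR croton oil samples 2 and 3 were the lowest of the irritated ears. Krt16 rose by 3.72 ± 0.38 (adjusted p = 5.4e-06) in LC-DTA and 2.77 ± 0.38 (adjusted p = 7.53e-05) in LC-DTR ears, a mean 13.1 and 6.46 times that under vehicle, and the difference of responses was 0.95 ± 0.54 (adjusted p = 0.221). Krt6a (chromosome 15, 101689910 to 101694307), a type II keratin of the companion layer and of activated epidermis, was at 726, 749, 713 and 589 TPM in LC-DTA croton oil samples, against 136, 127 and 158 TPM in LC-DTA vehicle samples. It was at 543, 437, 434 and 518 TPM in LC-DTR croton oil samples, against 126, 154 and 93.1 TPM in LC-DTR vehicle samples. The groups did not overlap, and Krt6a rose by 2.30 ± 0.15 (adjusted p = 4.31e-07) in LC-DTA and 1.97 ± 0.15 (adjusted p = 1e-06) in LC-DTR ears. For Krt6a the difference of responses was 0.33 ± 0.21 (adjusted p = 0.265), and without LC-DTR vehicle sample 3 it was called (0.52, adjusted p = 0.0482).

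Krt6b (chromosome 15, 101676023 to 101680287), a near copy of Krt6a, had the largest difference of responses among the tested keratins. It was at 91.9, 148, 113 and 51.7 TPM in LC-DTA croton oil samples, against 5.19, 7.36 and 4.86 TPM in LC-DTA vehicle samples. In LC-DTR ears it was at 24.6, 4.82, 8.82 and 26.0 TPM after croton oil, against 3.26, 16.9 and 3.74 TPM under vehicle. The LC-DTA groups were far apart, while LC-DTR vehicle sample 2 lay above croton oil samples 2 and 3. Krt6b rose by 3.83 ± 0.57 (adjusted p = 7.67e-05) in LC-DTA ears, and its LC-DTR difference was 0.99 ± 0.57 (adjusted p = 0.161). The difference of responses was 2.84 ± 0.80 (adjusted p = 0.0219). The LC-DTR rise was called without vehicle sample 2 (1.65, adjusted p = 0.0224), without croton oil sample 2 (1.41, adjusted p = 0.0409) and without croton oil samples 2 and 3 (1.88, adjusted p = 0.0115), and without that pair the difference of responses was 1.94 (adjusted p = 0.0676), while without LC-DTR vehicle sample 2 it was 2.18. Transcripts of Krt6a and Krt6b shared 43.6% and 44.5% of their 50-base windows with each other, and Krt16 shared 25.2% of its windows with the predicted gene Gm11597, so the split of reads within these pairs is uncertain.

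Krt17 (chromosome 11, 100256217 to 100261029), a type I keratin of follicles and of activated epidermis, was at 1146, 1037, 1159 and 858 TPM in LC-DTA croton oil samples, against 456, 437 and 502 TPM in LC-DTA vehicle samples. It was at 952, 815, 932 and 1176 TPM in LC-DTR croton oil samples, against 562, 521 and 359.8 TPM in LC-DTR vehicle samples. The treatments did not overlap in either genotype, and Krt17 rose by 1.17 ± 0.15 (adjusted p = 3.12e-05) in LC-DTA and 1.02 ± 0.15 (adjusted p = 0.000134) in LC-DTR ears, with a difference of responses of 0.14 ± 0.22 (adjusted p = 0.664). Krt42 lies 1852 bases from Krt17 (100262882 to 100269871) and is a type I keratin with no class here. Krt42 was low under vehicle and rose in both genotypes, at 7.56, 6.63, 6.74 and 5.51 TPM in LC-DTA croton oil samples, against 0.771, 0.801 and 0.982 TPM in LC-DTA vehicle samples. It was at 11.2, 8.69, 8.04 and 11.3 TPM in LC-DTR croton oil samples, against 1.12, 1.22 and 0.689 TPM in LC-DTR vehicle samples. No croton oil sample overlapped a vehicle sample, and the differences were 2.03 ± 0.14 (adjusted p = 5.03e-07) in LC-DTA and 2.42 ± 0.14 (adjusted p = 2.36e-07) in LC-DTR ears. Its promoter is printed above, and 0.268% of its 50-base windows were shared with another gene, Krt17. Neutrophil markers rose after croton oil too: 6 of 6 tested rose in both genotypes, as 14.4% of all genes did. Their summed TPM was 440.5 to 668 in LC-DTA croton oil, 33.6 to 64.5 in LC-DTA vehicle, 261 to 769 in LC-DTR croton oil and 25.7 to 68.7 in LC-DTR vehicle samples. Between the genotypes after croton oil, 1 of the 6 was higher and 1 lower in LC-DTA (34.3% and 18.0% of all genes). Of the 4 stress-induced keratins, 3 were higher there. The part of neutrophils in these results was not tested.

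Of the 5 tested keratins of simple epithelia, Krt18 rose in both genotypes while Krt7 and Krt8 fell in both. Over all genes tested 14.4% rose in both and 17.7% fell in both. Krt18 (promoter above), the type I keratin that pairs with Krt8, was at 6.37, 5.51, 7.99 and 4.91 TPM in LC-DTA croton oil samples, against 0.821, 0.630 and 1.18 TPM in LC-DTA vehicle samples. It was at 9.996, 6.96, 5.85 and 11.1 TPM in LC-DTR croton oil samples, against 0.694, 0.560 and 0.305 TPM in LC-DTR vehicle samples. The treatments were separate in both genotypes, with rises of 1.93 ± 0.20 (adjusted p = 4.88e-06) in LC-DTA and 2.61 ± 0.20 (adjusted p = 1.09e-06) in LC-DTR ears. Krt8 (chromosome 15, 101996698 to 102004482), its partner, was at 6.13, 4.91, 2.80 and 4.11 TPM in LC-DTA croton oil samples, against 6.56, 6.83 and 7.47 TPM in LC-DTA vehicle samples. It was at 2.93, 3.18, 3.52 and 2.94 TPM in LC-DTR croton oil samples, against 5.25, 4.92 and 4.69 TPM in LC-DTR vehicle samples. Krt8 samples did not overlap between treatments, and the differences were -0.57 ± 0.16 (adjusted p = 0.00675) in LC-DTA and -0.52 ± 0.16 (adjusted p = 0.013) in LC-DTR ears. The LC-DTA call was lost without croton oil samples 3 and 4 (-0.29, adjusted p = 0.0548) and the LC-DTR call by quantile normalization (-0.39, adjusted p = 0.0562). The ratio of Krt18 to Krt8 was 1.55 ± 0.869 in LC-DTA croton oil samples, against 0.125 ± 0.0329 in LC-DTA vehicle samples, and 2.75 ± 0.990 in LC-DTR croton oil samples, against 0.104 ± 0.0348 in LC-DTR vehicle samples. Of the Krt8 windows 26.9% were shared with the pseudogene Krt8-ps, so its level is uncertain, while Krt18 shared 0.72%.

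Krt7, a type II keratin of glands and ducts, was at 3.26, 2.14, 1.82 and 2.63 TPM in LC-DTA croton oil samples, against 4.71, 5.59 and 5.80 TPM in LC-DTA vehicle samples. In LC-DTR ears Krt7 was at 3.31, 3.77, 3.97 and 2.64 TPM after croton oil, against 6.41, 6.88 and 6.09 TPM under vehicle. Croton oil samples were below vehicle samples in both genotypes, by -0.89 ± 0.14 (adjusted p = 0.000126) in LC-DTA and -0.76 ± 0.14 (adjusted p = 0.00057) in LC-DTR ears. Krt19, a type I keratin without a fixed partner that marks the bulge of the follicle, was at 2.59, 3.07, 3.14 and 2.78 TPM in LC-DTA croton oil samples, against 4.28, 3.80 and 4.97 TPM in LC-DTA vehicle samples. It was at 1.78, 1.24, 1.36 and 1.58 TPM in LC-DTR croton oil samples, against 2.19, 1.39 and 2.31 TPM in LC-DTR vehicle samples. Only the LC-DTA groups were separate, and Krt19 changed by -0.45 ± 0.13 (adjusted p = 0.00689) there and by -0.24 ± 0.13 (adjusted p = 0.122) in LC-DTR ears, where it was called without vehicle sample 2 (-0.39, adjusted p = 0.0153). For Krt19 the difference of responses was -0.21 ± 0.18 (adjusted p = 0.408). Krt23, a type I keratin of simple epithelia, was at 160.3, 146, 191 and 202 TPM in LC-DTA croton oil samples, against 197, 206 and 196 TPM in LC-DTA vehicle samples. It was at 354, 353, 355 and 371 TPM in LC-DTR croton oil samples, against 326, 354 and 233 TPM in LC-DTR vehicle samples. Krt23 overlapped between treatments in both genotypes, with differences of -0.20 ± 0.13 (adjusted p = 0.188) in LC-DTA and 0.26 ± 0.13 (adjusted p = 0.106) in LC-DTR ears. The LC-DTA difference of Krt23 was called without LC-DTA croton oil samples 3 and 4 (-0.38, adjusted p = 0.0342), and the LC-DTR difference without LC-DTR vehicle sample 2 (0.38, adjusted p = 0.0309).

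Of the keratins of the upper follicle and companion layer, neither was called for croton oil in either genotype. Over all genes tested 24.5% were called in neither. Krt79, a type II keratin of the upper follicle, was at 1622, 1281, 1120.2 and 1191 TPM in LC-DTA croton oil samples, against 1386, 1106 and 1202 TPM in LC-DTA vehicle samples. It was at 930.2, 1004, 1109.9 and 963 TPM in LC-DTR croton oil samples, against 1255, 1233 and 1139 TPM in LC-DTR vehicle samples. Treatments overlapped in LC-DTA ears and were separate in LC-DTR ears, though neither difference was called, at 0.074 ± 0.11 (adjusted p = 0.601) and -0.27 ± 0.11 (adjusted p = 0.0593). The LC-DTR difference of Krt79 was called by quantile normalization (-0.32, adjusted p = 0.0209), in a fit of those 2 groups alone (adjusted p = 0.0245) and with certain samples left out: LC-DTA croton oil sample 1 (adjusted p = 0.0167), sample 3 (adjusted p = 0.0491) or samples 3 and 4 (adjusted p = 0.0394), or LC-DTR croton oil sample 3 (-0.32, adjusted p = 0.0395). The difference of responses of Krt79 was 0.35 ± 0.16 (adjusted p = 0.136), called by quantile normalization (0.45, adjusted p = 0.0391) and without LC-DTA croton oil samples 3 and 4 (0.51, adjusted p = 0.0475). Krt75, of the companion layer, was at 12.8, 11.9, 13.5 and 8.83 TPM in LC-DTA croton oil samples, against 10.7, 15.3 and 17.2 TPM in LC-DTA vehicle samples. It was at 7.63, 6.65, 6.22 and 7.63 TPM in LC-DTR croton oil samples, against 17.9, 6.95 and 9.03 TPM in LC-DTR vehicle samples. Both genotypes overlapped, with differences of -0.26 ± 0.24 (adjusted p = 0.366) in LC-DTA and -0.52 ± 0.24 (adjusted p = 0.0861) in LC-DTR ears, and LC-DTR vehicle sample 1 stood above the rest of its group. Without LC-DTR vehicle sample 2 the LC-DTR difference of Krt75 was -0.78 (adjusted p = 0.0152).

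The inner root sheath keratins were low, and 1 vehicle sample in each genotype stood above the rest. The 8 genes of this class summed to 4.93, 2.73, 2.38 and 2.58 TPM in LC-DTA croton oil samples, against 3.91, 3.54 and 16.2 TPM in LC-DTA vehicle samples. They summed to 2.37, 2.17, 2.07 and 1.97 TPM in LC-DTR croton oil samples, against 3.81, 7.45 and 25.0 TPM in LC-DTR vehicle samples. The LC-DTA sums overlapped and the LC-DTR sums did not, and sample 3 was the highest vehicle sample in both genotypes. Krt28 (promoter above), a type I inner root sheath keratin, was at 1.53, 1.12, 1.03 and 0.897 TPM in LC-DTA croton oil samples, against 1.62, 1.81 and 2.51 TPM in LC-DTA vehicle samples. It was at 0.506, 0.876, 1.13 and 0.853 TPM in LC-DTR croton oil samples, against 2.26, 2.51 and 3.29 TPM in LC-DTR vehicle samples. Krt28 was lower without overlap in both genotypes, by -0.47 ± 0.15 (adjusted p = 0.0142) in LC-DTA and -1.0 ± 0.15 (adjusted p = 0.000119) in LC-DTR ears. The LC-DTA call was lost without LC-DTA vehicle sample 3 (-0.35, adjusted p = 0.0839), without croton oil samples 3 and 4 (-0.35, adjusted p = 0.125) and by quantile normalization (-0.33, adjusted p = 0.0792). By that normalization Krt28 was also called for the difference of responses (0.63, adjusted p = 0.0489; 0.53 ± 0.21 (adjusted p = 0.0826) as deposited) and was lower in LC-DTA under vehicle (-0.51, adjusted p = 0.0401; -0.31 ± 0.16 (adjusted p = 0.171) as deposited). Krt27 fell in LC-DTR ears, by -1.01 ± 0.33 (adjusted p = 0.0193), with 0.422, 0.493, 0.246 and 0.563 TPM after croton oil, against 0.927, 1.33 and 4.28 TPM under vehicle, and without vehicle sample 3 the call was lost (-0.57, adjusted p = 0.117), as it was without croton oil samples 2 and 3 (-0.95, adjusted p = 0.0774). Its LC-DTA difference was -0.56 ± 0.33 (adjusted p = 0.154), called without LC-DTA vehicle sample 2 (-0.89, adjusted p = 0.0413), and the difference of responses was 0.45 ± 0.46 (adjusted p = 0.507). Krt25 and Krt71 reached 4.63 and 4.31 TPM in LC-DTA vehicle sample 3, and 8.84 and 6.41 TPM in LC-DTR vehicle sample 3. Neither was called in either genotype, with -0.34 ± 0.60 (adjusted p = 0.65) and -0.68 ± 0.56 (adjusted p = 0.305) in LC-DTA and -1.13 ± 0.60 (adjusted p = 0.129) and -1.29 ± 0.56 (adjusted p = 0.0666) in LC-DTR ears. At a pseudocount of 0.1 the LC-DTR difference of Krt71 was called (-2.86, adjusted p = 0.0416), and without LC-DTR vehicle sample 1 both were called lower there, Krt25 by -1.84 (adjusted p = 0.0182) and Krt71 by -1.89 (adjusted p = 0.0139). Krt25 and Krt27 shared 8.61% and 11.1% of their windows with each other.

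**Figure D4:**
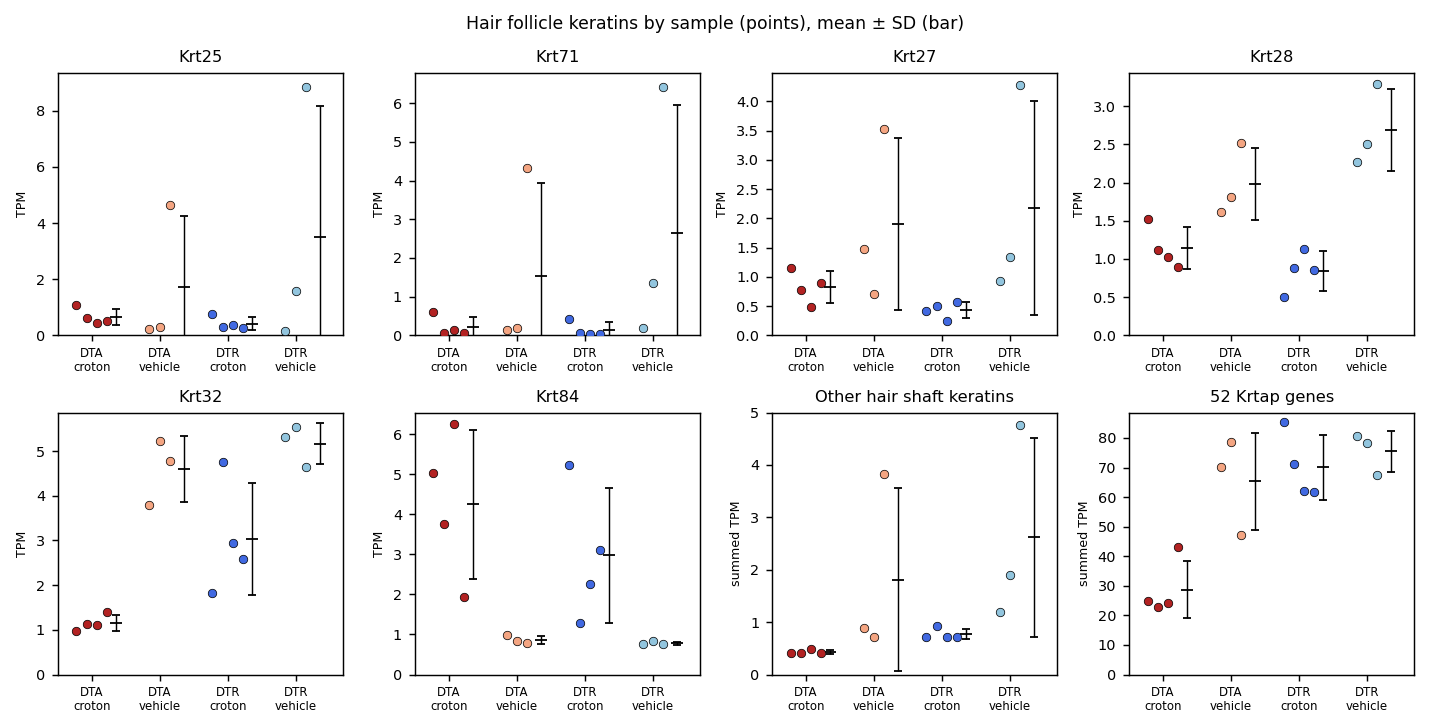
TPM of Krt25, Krt71, Krt27, Krt28, Krt32 and Krt84, the summed TPM of the other 13 keratins of the hair shaft class and the summed TPM of 52 Krtap genes in every sample (points), with the mean ± SD of each group (bars, drawn down to 0 at the lowest), for 4 croton oil and 3 vehicle samples per genotype. Vehicle sample 3 of each genotype is the highest point for Krt25, Krt71, Krt27, Krt28 and the other hair shaft keratins, and the Krtap sum is lowest in the LC-DTA croton oil samples.

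Hair shaft keratins were close to the floor of the table, and only Krt32 and Krt84 of the 15 present were tested. Krt32 (promoter above), a type I keratin of the hair cuticle, was at 0.975, 1.13, 1.11 and 1.41 TPM in LC-DTA croton oil samples, against 3.80, 5.23 and 4.78 TPM in LC-DTA vehicle samples. It was at 1.82, 4.76, 2.94 and 2.59 TPM in LC-DTR croton oil samples, against 5.32, 5.54 and 4.65 TPM in LC-DTR vehicle samples. The LC-DTA groups were separate, and LC-DTR croton oil sample 2 reached into the vehicle range. Krt32 fell in both genotypes, by -1.37 ± 0.18 (adjusted p = 3.45e-05) in LC-DTA and -0.66 ± 0.18 (adjusted p = 0.00844) in LC-DTR ears. The difference of responses of Krt32 was -0.71 ± 0.26 (adjusted p = 0.0621), called at a pseudocount of 0.1 (-1.07, adjusted p = 0.0381) and without LC-DTR croton oil sample 1 (-0.87, adjusted p = 0.0164). Krt84 was placed in the hair shaft class here but is a type II keratin known from the filiform papillae of the tongue. It was at 5.03, 3.76, 6.26 and 1.93 TPM in LC-DTA croton oil samples, against 0.979, 0.825 and 0.797 TPM in LC-DTA vehicle samples. It was at 5.23, 1.29, 2.26 and 3.11 TPM in LC-DTR croton oil samples, against 0.768, 0.829 and 0.755 TPM in LC-DTR vehicle samples. Every croton oil sample exceeded every vehicle sample, and Krt84 rose by 1.41 ± 0.30 (adjusted p = 0.0013) in LC-DTA and 1.06 ± 0.30 (adjusted p = 0.0101) in LC-DTR ears. Krt84 reached 1 TPM in 8 samples, all after croton oil, so it passed the filter only through them. Its calls were the same without the filter. The other 13 hair shaft keratins summed to 0.404 to 0.480 TPM in LC-DTA croton oil samples, against 0.879, 0.721 and 3.83 TPM in LC-DTA vehicle samples. Their sum was 0.718 to 0.919 TPM in LC-DTR croton oil samples, against 1.19, 1.90 and 4.77 TPM in LC-DTR vehicle samples. No croton oil sample reached the vehicle range of its genotype, and sample 3 was again the highest vehicle sample in both genotypes.

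Keratin-associated proteins, which crosslink hair keratins in the shaft, were mostly below 1 TPM. In each sample only 2 or 3 of the 52 genes reached 1 TPM, so their sum describes a few genes and not the family. The 52 Krtap genes summed to 22.8 to 43.1 TPM in LC-DTA croton oil samples, against 47.1 to 78.8 TPM in LC-DTA vehicle samples. In LC-DTR ears they summed to 61.8 to 85.3 TPM after croton oil, against 67.6 to 80.5 TPM under vehicle. The LC-DTR treatments overlapped and the LC-DTA treatments did not. Only Krtap3-2 and Krtap3-3 passed the filter. Krtap3-3 was at 1.76, 1.89, 1.65 and 2.30 TPM in LC-DTA croton oil samples, against 7.38, 8.76 and 5.62 TPM in LC-DTA vehicle samples. It was at 6.60, 4.60, 3.66 and 7.06 TPM in LC-DTR croton oil samples, against 4.65, 4.50 and 4.60 TPM in LC-DTR vehicle samples. Krtap3-3 changed by -1.50 ± 0.18 (adjusted p = 1.31e-05) in LC-DTA ears, its LC-DTR difference was 0.18 ± 0.18 (adjusted p = 0.412), and the difference of responses was -1.68 ± 0.25 (adjusted p = 0.000895). Krtap3-2 changed by -1.06 ± 0.26 (adjusted p = 0.00337) in LC-DTA and 0.0086 ± 0.26 (adjusted p = 0.981) in LC-DTR ears, with a difference of responses of -1.07 ± 0.37 (adjusted p = 0.0515).

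Without the filter, some of the 23 untested keratins were called. Krt4 (mucosal), Krt20 (simple epithelial), Krt31 and Krt33a (hair shaft) were lower after croton oil in LC-DTA ears, and Krt4, Krt33a, Krt35 and Krt83 (the last 3 of the hair shaft) were lower in LC-DTR ears. Of all 20712 genes without the filter, 5563 were lower in LC-DTA and 4456 in LC-DTR ears, a larger share than the named keratins among the 23. Between the genotypes after croton oil, Krt20 (-0.57, adjusted p = 0.00313) and Krt31 (-0.34, adjusted p = 0.0434) were lower in LC-DTA, and Krt20 was called for the difference of responses (-0.77, adjusted p = 0.0186), the only keratin called lower there without the filter. Of all genes, 2803 and 1802 were called lower in these comparisons, again a larger share. None of the 23 exceeded 1.53 TPM in any sample, the level of Krt13 in 1 sample, and 19 of them stayed below 1 TPM in all 14 samples. Krt33b was listed at 0 in 12 samples, and Krt34 and Krt81 in 11. Krt12, the corneal keratin and the last tested member, was at 1.29 to 2.77 TPM and was called in none of the 5 comparisons.

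The comparison of the genotypes after croton oil asked how irritated ears with long-term and short-term loss of Langerhans cells differed. The labels give a time after DT for LC-DTR ears only. In every comparison of the genotypes the transgene, the toxin and the duration of loss thus cannot be told apart. In LC-DTA against LC-DTR ears 11 keratin genes were higher and 6 lower, against 34.3% and 18.0% of all genes tested (52.3% in either direction), with a median difference of 0.25, against 0.093 over all genes. Median ratio scaling moved the share of higher calls over all genes to 49.8%, against 65.6% as deposited, and left 8 keratin genes higher and 6 lower. Quantile normalization left 8 higher and 8 lower. The higher genes included 2 of 3 basal keratins (Krt5 by 0.66 ± 0.12 (adjusted p = 0.000534) and Krt14 by 0.59 ± 0.091 (adjusted p = 0.000147)), Krt2 by 0.56 ± 0.12 (adjusted p = 0.00183), and 3 of 4 stress-induced keratins. LC-DTA croton oil samples lay above LC-DTR croton oil samples without overlap for all 6 of these genes (the values by sample stand above). The share of all genes without such overlap was not computed here, so this only describes these genes. Krt6b was 6.30 times as high in LC-DTA on the mean, with a difference of 2.76 ± 0.52 (adjusted p = 0.000678), Krt16 2.49 times, with 1.38 ± 0.36 (adjusted p = 0.00538), and Krt6a 1.44 times, with 0.52 ± 0.14 (adjusted p = 0.00528). Without LC-DTR croton oil samples 2 and 3 the difference of Krt6b was 1.86, and Krt16 (0.87, adjusted p = 0.0905) and Krt6a (0.38, adjusted p = 0.0768) were no longer called.

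Krt19, Krt75, Krt79, Krt8 and Krt24 were the other keratins higher in LC-DTA after croton oil. Krt19 was 2.90 ± 0.256 TPM in LC-DTA and 1.49 ± 0.237 TPM in LC-DTR croton oil samples (SD, n = 4 each), a difference of 0.65 ± 0.12 (adjusted p = 0.000439) without overlap. Krt79 was 1303 ± 222 and Krt75 11.8 ± 2.07 TPM in LC-DTA croton oil samples, against 1002 ± 78.2 and 7.03 ± 0.708 TPM in LC-DTR croton oil samples (SD, n = 4 each). Both were separate between genotypes, with differences of 0.37 ± 0.11 (adjusted p = 0.01) and 0.66 ± 0.22 (adjusted p = 0.0241). The call of Krt79 was lost by median ratio scaling (0.27, adjusted p = 0.0599). That of Krt75 was lost by quantile normalization (0.47, adjusted p = 0.0824), without LC-DTR croton oil samples 2 and 3 (0.55, adjusted p = 0.142), and without any 1 of LC-DTA croton oil samples 1, 2 and 3 and LC-DTR croton oil samples 2 and 3 (0.59 to 0.65, adjusted p 0.051 to 0.0636). Krt24 (difference 0.28 ± 0.11 (adjusted p = 0.0489)) and Krt8 (0.37 ± 0.15 (adjusted p = 0.0459)) overlapped between the genotypes, and both calls were lost by both scalings and in most fits with 1 sample left out (17 and 18 of 26 settings in all).

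The 6 keratins lower in LC-DTA after croton oil were Krt23, Krt78, Krt80, Krt32, Krt42 and Krt7. Krt23 was at 175 ± 26.0 TPM in LC-DTA and 358 ± 8.31 TPM in LC-DTR croton oil samples (SD, n = 4 each), 0.488 times as high in LC-DTA, a difference of -1.04 ± 0.12 (adjusted p = 1.59e-05). Krt80 was at 689.6 ± 40.2 TPM in LC-DTA and 1073 ± 77.7 TPM in LC-DTR croton oil samples, a difference of -0.64 ± 0.11 (adjusted p = 0.00032). The differences of Krt78 and Krt32 were -0.71 ± 0.069 (adjusted p = 6.12e-06) and -0.86 ± 0.17 (adjusted p = 0.000926). All 4 of these keratins were separate between the genotypes, a description without a share over all genes. Krt42 was lower in LC-DTA by -0.50 ± 0.13 (adjusted p = 0.00467), also without overlap, and lost the call without LC-DTA croton oil samples 3 and 4 (-0.40, adjusted p = 0.0545). Krt7 (-0.36 ± 0.13 (adjusted p = 0.032)) overlapped between genotypes and lost its call without LC-DTA croton oil sample 2 (-0.32, adjusted p = 0.0864) or 3 (-0.27, adjusted p = 0.104), without LC-DTR croton oil sample 2 (-0.32, adjusted p = 0.0806) or 3 (-0.30, adjusted p = 0.0882), without LC-DTA croton oil samples 3 and 4 (-0.26, adjusted p = 0.184) or LC-DTR croton oil samples 2 and 3 (-0.21, adjusted p = 0.281), with the replicate number as a block (adjusted p = 0.0593), without the filter (adjusted p = 0.0503) and in a fit of those 2 groups alone (adjusted p = 0.0632). Among the uncalled keratins, Krt1 (0.30 ± 0.14 (adjusted p = 0.082)) was called higher in LC-DTA with the replicate number as a block (0.30, adjusted p = 0.0263) and without LC-DTR croton oil sample 1 (0.40, adjusted p = 0.024). Krt10 (0.25 ± 0.12 (adjusted p = 0.0913)) was called higher without LC-DTR croton oil sample 3 (0.33, adjusted p = 0.0393) or samples 2 and 3 (0.39, adjusted p = 0.0415). Krt84 (0.42 ± 0.28 (adjusted p = 0.226)) was called higher without LC-DTA croton oil sample 4 (0.67, adjusted p = 0.043) or LC-DTR croton oil sample 1 (0.67, adjusted p = 0.0451). Krt18 (-0.38 ± 0.18 (adjusted p = 0.0972)) was called lower in LC-DTA by quantile normalization (-0.53, adjusted p = 0.0308), without LC-DTA croton oil sample 3 (-0.49, adjusted p = 0.0454), without LC-DTR croton oil sample 3 (-0.52, adjusted p = 0.0258) and without LC-DTR croton oil samples 2 and 3 (-0.70, adjusted p = 0.00714). Krt77 (-0.93 ± 0.42 (adjusted p = 0.0747)) was called lower without LC-DTA croton oil sample 3 (-1.22, adjusted p = 0.0286), sample 4 (-1.15, adjusted p = 0.0442) or both (-1.69, adjusted p = 0.00551). Krt15 (-0.33 ± 0.30 (adjusted p = 0.362)) was called lower without LC-DTR croton oil sample 1 (-0.63, adjusted p = 0.0458).

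**Figure D5:**
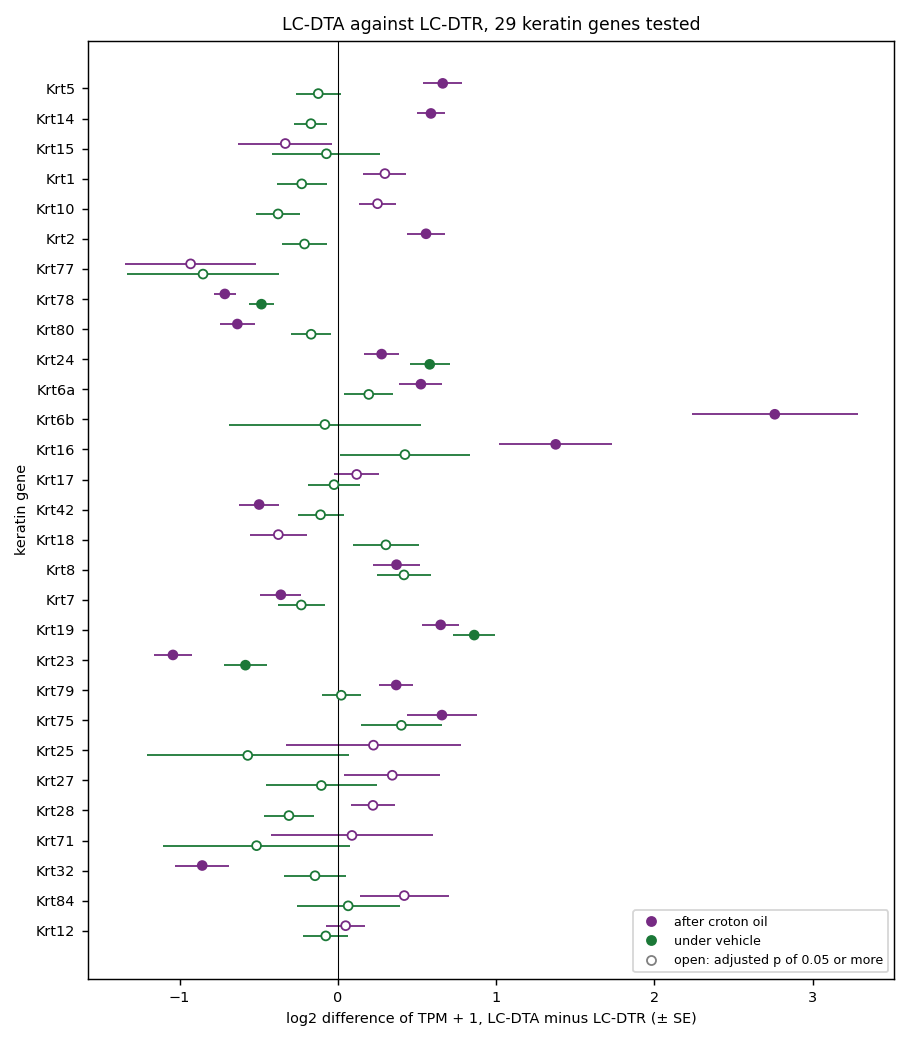
Log2 difference of TPM + 1, LC-DTA minus LC-DTR, for the 29 keratin genes tested, with SE bars; the value after croton oil is drawn above that under vehicle for each gene, and open points have an adjusted p of 0.05 or more. Krt6b stands at 2.76 after croton oil and -0.08 under vehicle, while Krt19 is to the right of 0 and Krt23 and Krt78 to the left of it under both treatments.

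Under vehicle the genotypes differed in 4 keratin genes, 2 higher and 2 lower in LC-DTA, against 24.5% of all genes tested (19.1% higher and 5.34% lower). Here median ratio scaling moved the median of all genes to -0.013, against 0.097 as deposited, and the share of higher calls to 50.2%, against 78.2%, with 2 keratin genes higher and 3 lower. The median over the 29 keratins was -0.11 as deposited. Krt19 (0.86 ± 0.13 (adjusted p = 0.00109)) and Krt24 (0.58 ± 0.13 (adjusted p = 0.00582)) were higher in LC-DTA, and Krt78 (-0.48 ± 0.080 (adjusted p = 0.00135)) and Krt23 (-0.58 ± 0.14 (adjusted p = 0.00799)) were lower. All 4 were separate between the vehicle groups, whose values by sample stand above. With 3 samples per group such separation can arise by chance, and its share over all genes was not computed. Krt10 also lay lower in every LC-DTA vehicle sample than in any LC-DTR vehicle sample, with a difference of -0.38 ± 0.14 (adjusted p = 0.0589), and was called by median ratio scaling (-0.50, adjusted p = 0.03), with a filter of 5 TPM (adjusted p = 0.0454), without the trend (adjusted p = 0.0472), with robust estimation (adjusted p = 0.0382) and without LC-DTR vehicle sample 1 (-0.50, adjusted p = 0.0216). Krt5 (-0.12 ± 0.14 (adjusted p = 0.553)), Krt14 (-0.17 ± 0.10 (adjusted p = 0.255)) and Krt2 (-0.21 ± 0.14 (adjusted p = 0.296)) also lay lower in every LC-DTA vehicle sample, at 0.917, 0.889 and 0.855 times the LC-DTR mean, none called. These 3 were higher in LC-DTA after croton oil, and both differences enter their difference of responses. Krt7 (-0.23 ± 0.15 (adjusted p = 0.282)) and Krt77 (-0.85 ± 0.48 (adjusted p = 0.213)) were likewise lower without overlap and uncalled. The gap of Krt77 was narrow, with 210.0 TPM at most in LC-DTA and 210.7 TPM at least in LC-DTR vehicle samples. Krt8 was separate between the vehicle groups too, higher in LC-DTA by 0.42 ± 0.17 (adjusted p = 0.0859), and was called in a fit of those 2 groups alone (adjusted p = 0.0255) and without LC-DTA croton oil sample 1 (adjusted p = 0.04), sample 3 (adjusted p = 0.0226) or samples 3 and 4 (adjusted p = 0.0148). Krt80 (-0.17 ± 0.13 (adjusted p = 0.352)) was called without LC-DTR vehicle sample 3 (-0.36, adjusted p = 0.00788) and Krt75 (0.40 ± 0.26 (adjusted p = 0.277)) without LC-DTR vehicle sample 1 (0.76, adjusted p = 0.0147). None of the 4 stress-induced keratins differed between the vehicle groups past the threshold, with differences of 0.19 (Krt6a), -0.082 (Krt6b), 0.42 (Krt16) and -0.025 (Krt17) and adjusted p of 0.39, 0.939, 0.483 and 0.933.

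The croton oil response itself differed between genotypes for 5 keratin genes, all higher in LC-DTA relative to LC-DTR, against 23.1% of all genes tested (10.5% higher and 12.6% lower). They were Krt6b, Krt5, Krt2, Krt14 and Krt10, whose values are given above, so that 4 of them are structural keratins of the basal and spinous layers that fell in LC-DTR ears. At an unadjusted p under 0.05 there were 12. Krt18 (-0.68 ± 0.28 (adjusted p = 0.0928)) was called without LC-DTR croton oil sample 3 (-0.82, adjusted p = 0.0361) or samples 2 and 3 (-1.0, adjusted p = 0.0133), Krt42 (-0.39 ± 0.19 (adjusted p = 0.16)) without that pair (-0.58, adjusted p = 0.0428), and Krt23 (-0.46 ± 0.18 (adjusted p = 0.0809)) without LC-DTA croton oil sample 4 (-0.53, adjusted p = 0.0499), LC-DTA croton oil samples 3 and 4 (-0.64, adjusted p = 0.0305) or LC-DTR vehicle sample 2 (-0.58, adjusted p = 0.0364). The median difference of responses over the 29 genes was 0.26, against -0.021 over all genes.

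Keratin filaments are held at desmosomes and hemidesmosomes and bundled in the upper layers by filaggrin and related proteins. Of 18 tested genes with these roles, 2 were higher and 7 lower after croton oil in LC-DTA ears, and 1 higher and 6 lower in LC-DTR ears, with median differences of -0.15 and -0.14. Over all genes 24.2% were higher and 34.5% lower in LC-DTA, and 22.1% higher and 29.5% lower in LC-DTR ears, so the counts of lower genes lay near those shares. Dst, whose epidermal form bridges keratin to the hemidesmosome, was at 25.7, 20.4, 19.0 and 21.8 TPM in LC-DTA croton oil samples, against 68.1, 89.3 and 68.6 TPM in LC-DTA vehicle samples. It was at 45.3, 63.3, 57.5 and 44.1 TPM in LC-DTR croton oil samples, against 106, 112 and 107 TPM in LC-DTR vehicle samples. Dst was lower in every croton oil sample of both genotypes, by -1.75 ± 0.13 (adjusted p = 9.65e-07) in LC-DTA and -1.05 ± 0.13 (adjusted p = 4.38e-05) in LC-DTR ears, and more so in LC-DTA (difference of responses -0.70 ± 0.19 (adjusted p = 0.0185)). Itga6, the integrin subunit of hemidesmosomes, rose by 0.77 ± 0.085 (adjusted p = 8.27e-06) in LC-DTA and 0.52 ± 0.085 (adjusted p = 0.000248) in LC-DTR ears. Dsp, the desmosomal plakin to which keratins attach, changed by -0.33 ± 0.082 (adjusted p = 0.00385) in LC-DTA and -0.42 ± 0.082 (adjusted p = 0.000926) in LC-DTR ears. Ppl, a plakin of desmosomes and the cornified envelope, fell in LC-DTA ears, with -0.65 ± 0.10 (adjusted p = 8.15e-05), and had -0.12 ± 0.10 (adjusted p = 0.312) in LC-DTR ears, with a difference of responses of -0.52 ± 0.14 (adjusted p = 0.0151). Among the genotypes, 2 of the 18 were higher and 7 lower in LC-DTA after croton oil (34.3% and 18.0% of all genes), and 2 higher and 4 lower under vehicle (19.1% and 5.34%).

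Of 22 transcription factors with known roles in epidermal or follicular keratin expression, 7 were higher and 12 lower after croton oil in LC-DTA ears (24.2% and 34.5% of all genes), and 7 higher and 6 lower in LC-DTR ears (22.1% and 29.5%). Lhx2, a factor of follicle stem cells, was at 3.17, 2.64, 2.35 and 2.29 TPM in LC-DTA croton oil samples, against 10.8, 13.3 and 13.6 TPM in LC-DTA vehicle samples. It was at 2.50, 2.89, 2.78 and 1.79 TPM in LC-DTR croton oil samples, against 12.3, 9.07 and 7.97 TPM in LC-DTR vehicle samples. Lhx2 fell in both genotypes without overlap, by -1.91 ± 0.15 (adjusted p = 1.07e-06) and -1.62 ± 0.15 (adjusted p = 3.73e-06). Msx2, a homeobox factor of the hair matrix, changed by -1.47 ± 0.13 (adjusted p = 2.01e-06) in LC-DTA and -0.79 ± 0.13 (adjusted p = 0.000224) in LC-DTR ears, and the fall was larger in LC-DTA (-0.68 ± 0.18 (adjusted p = 0.0175)). Klf4, which drives differentiation of the epidermal barrier, fell in LC-DTA ears, with -0.83 ± 0.089 (adjusted p = 6.97e-06), and had -0.13 ± 0.089 (adjusted p = 0.232) in LC-DTR ears, with a difference of responses of -0.70 ± 0.13 (adjusted p = 0.00228). Fosl1, an AP-1 subunit, rose by 1.48 ± 0.24 (adjusted p = 0.00016) in LC-DTA and 2.23 ± 0.24 (adjusted p = 1.2e-05) in LC-DTR ears and was higher in LC-DTA under vehicle (1.21 ± 0.26 (adjusted p = 0.005)). In the difference of responses 6 of the 22 were lower and none higher, against 12.6% and 10.5% of all genes.

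Of 10 epidermal markers other than keratins, 3 were higher and 2 lower after croton oil in LC-DTA ears (24.2% and 34.5% of all genes), and 3 higher and 3 lower in LC-DTR ears (22.1% and 29.5%), with medians of 0.015 and 0.0027. Dsg3, a desmosomal cadherin of the basal layers, rose by 1.63 ± 0.17 (adjusted p = 5.23e-06) in LC-DTA and 1.32 ± 0.17 (adjusted p = 3.83e-05) in LC-DTR ears. Dsc3, a desmosomal cadherin of the same layers, had 0.018 ± 0.066 (adjusted p = 0.835) in LC-DTA ears and fell in LC-DTR ears, with -0.40 ± 0.066 (adjusted p = 0.000255), with a difference of responses of 0.42 ± 0.093 (adjusted p = 0.00713). Trp63, the master factor of stratified epithelium, rose by 0.43 ± 0.11 (adjusted p = 0.00517) in LC-DTA and 0.38 ± 0.11 (adjusted p = 0.0139) in LC-DTR ears. After croton oil 2 of the 10 markers were higher and 5 lower in LC-DTA than in LC-DTR ears, against 34.3% and 18.0% of all genes. Under vehicle 1 of the 10 was higher and 5 lower in LC-DTA, against 19.1% and 5.34% of all genes. The part of these markers in the keratin results was not tested.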

How the data were processed

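Per the labels' protocols, RNA of 14 whole ear samples in 4 groups came from Qiagen RNeasy columns, and Illumina TruSeq Stranded mRNA kits gave the libraries. Tools named in the submitters' processing notes are cutadapt, HISAT2, Subread and featureCounts, with build mm10 of the mouse genome, with no version numbers. The values used were TPM as deposited by the authors. How TPM were computed from reads, with which annotation and whether by strand, is not given in the sources used here. Because TPM hold no depth, no counting interval is printed. Of 24062 rows, 27 were named as dates (0.124 to 0.145% of TPM) and left out, and 0 sample columns were without a sample. Genes with at least 1 TPM in at least 3 samples (14693) were fitted as log2(TPM + 1) with limma 3.58.1 in R 4.3.3, with 1 mean per group, all 14 samples and a trend of variance with level, and two-sided p-values were adjusted by Benjamini-Hochberg over all of them in each of 5 comparisons. The test was checked on simulated data with independent normal noise of equal spread in all groups. That check does not cover outlying samples or genes that vary together. Within groups the log2 values of sample pairs correlated at 0.986 to 0.996 across genes, and no pair was identical. Tables were handled in pandas 2.3.3 (Python 3.11.15) and plotted in matplotlib 3.10.9.

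The keratin genes, their classes and the other gene lists were chosen with earlier results of these data known. By rule, values of every sample were given for the basal, stress-induced and main suprabasal keratins and for up to 4 members of each other class with the lowest p and a mean of at least 5 TPM in 1 group. Up to 4 genes of each other list could be named by lowest p. Sfn, which was among the 4 epidermal markers of lowest p, was left out. No gene was named of the fibroblast, neutrophil, muscle, cartilage, sebocyte, melanocyte and adipocyte lists. Values by sample of Krt19, Krt27, Krt28, Krt42, Krt80 and Krt84 were added after they were seen. Shared windows were all 50-base stretches of a gene's GENCODE M21 transcript found in transcripts of other genes, and the read length behind the values is not given in the sources used here. No promoter was matched for Krt1, Krt15, Krt16, Krt17, Krt19, Krt6a, Krt6b and Krt80 among the tested keratins. Results were recomputed with pseudocounts of 0.1 and 5, without a filter, with a filter of 5 TPM, median ratio scaling, quantile normalization, limma without the trend, robust limma, a block for the replicate number, a fit of only the groups compared, and samples left out singly or in 2 pairs together (LC-DTA croton oil samples 3 and 4, whose label numbers lie apart, and LC-DTR croton oil samples 2 and 3, which earlier results set apart).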

Additional observations from a re-analysis of the deposited data

Results flagged for a closer look

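Of 58 keratin groups of 4 samples, 4 had a sample far from the others by Dixon's ratio, where chance gives about 1 in 20. Krt23 was at 371 TPM in LC-DTR croton oil sample 4, against 353 to 355 TPM in the other 3. Krt78 was at 52.8 TPM in LC-DTA croton oil sample 2, below 57.8 to 58.1 TPM in the other 3. Krt71 was at 0.602 TPM in LC-DTA croton oil sample 1 and at 0.430 TPM in LC-DTR croton oil sample 1, above the rest of each group, which reached 0.147 and 0.0654 TPM.

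The response to croton oil differed between LC-DTA and LC-DTR ears by the tested difference of responses in limma for 5 keratin genes, each higher in LC-DTA relative to LC-DTR. On the log2 scale the differences were 2.84 ± 0.80 (adjusted p = 0.0219) for Krt6b, 0.79 ± 0.19 (adjusted p = 0.00964) for Krt5, 0.77 ± 0.19 (adjusted p = 0.0109) for Krt2, 0.76 ± 0.14 (adjusted p = 0.00243) for Krt14 and 0.63 ± 0.18 (adjusted p = 0.0243) for Krt10.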

How the results depend on the processing

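Over all alternatives the number of keratin genes called stayed within 1.5 times of the value reported: 15 to 20 for croton oil in LC-DTA (17 reported), 18 to 24 for croton oil in LC-DTR (20), 14 to 18 for the genotypes after croton oil (17), 4 to 6 under vehicle (4) and 4 to 7 for the difference of responses (5). Leaving out 1 sample gave 16 to 17, 18 to 23, 14 to 18, 4 to 6 and 4 to 7. Of 63 called differences 43 kept call and direction in each of the 26 settings in which they were computed and 20 lost the call in at least 1, and 29 of 82 uncalled differences were called in at least 1. The difference of responses of Krt10 reversed by quantile normalization, to -0.041 (adjusted p = 0.804), since that method gives the highest gene of each sample 1 common value. Deviations from the group mean correlated weakly between same-numbered samples of different groups, at -0.29 to 0.13. The labels give no pairing, and so few correlations from small groups cannot exclude one or a shared batch. With the replicate block the counts were 17, 19, 15, 4 and 6. Depth is unknown, and the 23 keratins below the filter cannot be compared reliably at these levels.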

Other observations

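Markers of other cells of the ear gave the following values, whose part in the keratin results was not tested. Of 5 melanocyte markers 4 were higher in LC-DTA than in LC-DTR ears after croton oil and 1 under vehicle, against 34.3% and 19.1% of all genes tested, and none was called for croton oil in either genotype. Over all genes, 24.2% were higher and 34.5% lower after croton oil in LC-DTA, and 22.1% higher and 29.5% lower in LC-DTR ears. Of 7 skeletal muscle markers 3 fell after croton oil in LC-DTA ears and none was called in LC-DTR ears. Of 5 tested cartilage markers 1 was lower after croton oil in LC-DTA and 2 in LC-DTR ears, and 2 were higher in LC-DTA than in LC-DTR ears after croton oil. Of 6 sebocyte markers 1 fell in each genotype, and of 5 adipocyte markers none was called in LC-DTA and 1 fell in LC-DTR ears.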
